A study of Mus musculus with 15 samples.

Results

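The genes described here are 47 genes of the cell division cycle, followed through 5 sorted cell fractions that arise as mouse embryonic stem (ES) cells turn towards blood and endothelium. They were found as the lines of the deposited gene count table whose symbol is one of 47 given names. The rule itself uses names only, but the names were chosen with earlier results of these data known. Shares of members set against all genes are therefore a description. All 47 were present among 24034 gene lines, and all 47 passed the filter on low counts that left 13662 genes for testing. For the description they were divided into 12 genes of replication licensing and the replication fork, 7 of DNA synthesis and nucleotide supply, 12 cyclins and cyclin-dependent kinases (CDKs), 5 E2F factors and pocket proteins, 3 CDK inhibitors and 8 genes of mitosis and proliferation.

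A cell enters the cycle when D-type cyclins with Cdk4 or Cdk6, and then E-type cyclins with Cdk2, phosphorylate the retinoblastoma family of pocket proteins and so release E2F transcription factors, which switch on the genes of DNA replication. Origins are licensed in G1 by ORC, Cdc6 and Cdt1, which load the MCM helicase, and they fire in S phase, after which cyclin A and cyclin B with Cdk1 and the Aurora and Polo kinases carry the cell through mitosis. CDK inhibitors of the Cip/Kip and INK4 families hold these kinases back, and slowing of the cycle is a known part of endothelial and early blood cell differentiation.

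The study placed LacZ, the gene for bacterial beta-galactosidase, under regulatory DNA of the Endoglin gene (Eng) and sorted ES-cell progeny by the reporter. Endoglin binds TGF-beta ligands together with their receptors, on endothelium and on early blood progenitors. In the line with the Eng promoter and the -8 kb enhancer (written -8/P in the labels), cells were sorted at a stage labelled HEI into fractions that were ENG+FDG+, ENG-FDG+ or ENG+FDG-. FDG is a substrate that becomes fluorescent when beta-galactosidase cleaves it, so FDG+ marks an active reporter, and ENG stands for the Endoglin protein. In the line with the promoter and the -8, +7 and +9 kb enhancers (-8/P/+7/+9), FLK1+ cells, which carry the VEGF receptor that Kdr encodes, were separated into a LacZ+ and a LacZ- fraction. Each fraction had 3 libraries, numbered 1 to 3, of amplified total RNA. All fractions carried an Eng reporter, so no unmodified line was analysed here. HEI and FLK1+ cells differed in reporter line, stage and sort gate at once, and those 3 cannot be told apart. The labels do not name separate cultures or clones, so each p-value reflects only how these libraries vary, which may be technical variation.

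Gene counts summed to between 9673396 and 16337785 per library, of which the 47 members took 0.593 to 1.03%. Eng itself had 180.2 to 904 CPM (counts per 1000000, after scaling of the libraries) in ENG+FDG+ libraries, 39.4 to 161 CPM in ENG-FDG+ libraries, 184 to 962 CPM in ENG+FDG- libraries, 20.5 to 85.2 CPM in FLK1+ LacZ+ libraries and 20.8 to 38.4 CPM in FLK1+ LacZ- libraries. Of 10 endothelial marker genes, all 10 had reads in every group, and their summed level was 2547 to 6237 CPM in HEI libraries against 454 to 832 CPM in FLK1+ libraries. These sums include Kdr, the gene of the FLK1 sort. It had 404 to 1036 CPM in HEI libraries and 319 to 715 CPM in FLK1+ libraries, most of the FLK1+ sum in several of them. The 6 markers of primitive streak and nascent mesoderm summed to 3.2 to 14.9 CPM in HEI libraries, with Mesp1 at 0 in all HEI groups, against 676 to 2507 CPM in FLK1+ libraries. The 5 libraries numbered 1 stood apart before any comparison. Within a group they correlated at r = 0.864 to 0.933 with the other libraries over log2 CPM of the genes tested, against 0.987 to 0.99 between replicates 2 and 3, and the ribosomal RNA gene Rn45s held 1.40 to 3.56% of the counts in them and 0.524 to 0.784% of the counts in the others. Values without replicate 1 are therefore given beside those with it for some results, though not for all.

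Promoter sequences are shown because the licensing and the mitosis genes, whose transcripts are described below, differed in the short words these sequences hold. RefSeq start-site windows of GRCm38.p6, from 250 bases before to 50 bases after a start, were found for 37 of the 47 members, some with more than 1 start, 46 windows in all. Both strands were searched for 3 kinds of word, namely E2F words (TTTCCCGC, TTTCGCGC, TTTGCCGC or TTTGGCGC), CHR words (TTTGAA or TTCGAA, the cell cycle genes homology region) and the CCAAT box. The windows below run 5′ to 3′ along the gene's strand, with every matching word in capitals, and adjacent words can share letters. Cdc6 (chr11:98907901-98908200, plus strand), Mcm3 (chr1:20820263-20820562, minus strand) and Orc1 (chr4:108579204-108579503, plus strand) belong to the licensing class, and each has an E2F word. Aurka (chr2:172370521-172370820, minus strand), Plk1 (chr7:122159185-122159484, plus strand) and Top2a (chr11:99024140-99024439, minus strand) belong to the mitosis class, and each has a CHR word and a CCAAT box but no E2F word.
Cdc6: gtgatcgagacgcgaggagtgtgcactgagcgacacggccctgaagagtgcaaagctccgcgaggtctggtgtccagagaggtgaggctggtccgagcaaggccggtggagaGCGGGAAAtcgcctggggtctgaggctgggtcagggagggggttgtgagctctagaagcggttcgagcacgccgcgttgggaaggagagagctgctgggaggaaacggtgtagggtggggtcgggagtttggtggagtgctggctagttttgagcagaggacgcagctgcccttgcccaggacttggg
Mcm3: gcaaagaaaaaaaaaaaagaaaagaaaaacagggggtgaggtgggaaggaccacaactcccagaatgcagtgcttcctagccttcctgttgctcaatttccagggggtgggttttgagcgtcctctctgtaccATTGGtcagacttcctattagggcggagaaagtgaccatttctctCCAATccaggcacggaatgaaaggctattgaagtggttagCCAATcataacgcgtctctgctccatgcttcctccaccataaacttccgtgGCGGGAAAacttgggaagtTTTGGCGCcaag
Orc1: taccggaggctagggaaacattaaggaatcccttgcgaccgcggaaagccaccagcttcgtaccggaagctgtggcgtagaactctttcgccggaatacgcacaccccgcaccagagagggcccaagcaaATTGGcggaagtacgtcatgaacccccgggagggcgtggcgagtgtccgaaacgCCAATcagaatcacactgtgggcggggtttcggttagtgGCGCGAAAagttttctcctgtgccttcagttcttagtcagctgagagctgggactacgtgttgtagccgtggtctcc
Aurka: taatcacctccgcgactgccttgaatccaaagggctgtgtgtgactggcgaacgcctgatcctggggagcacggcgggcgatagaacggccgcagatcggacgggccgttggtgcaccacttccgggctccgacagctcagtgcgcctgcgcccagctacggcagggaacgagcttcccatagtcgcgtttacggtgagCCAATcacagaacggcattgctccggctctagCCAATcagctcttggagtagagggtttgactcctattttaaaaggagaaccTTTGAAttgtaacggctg
Plk1: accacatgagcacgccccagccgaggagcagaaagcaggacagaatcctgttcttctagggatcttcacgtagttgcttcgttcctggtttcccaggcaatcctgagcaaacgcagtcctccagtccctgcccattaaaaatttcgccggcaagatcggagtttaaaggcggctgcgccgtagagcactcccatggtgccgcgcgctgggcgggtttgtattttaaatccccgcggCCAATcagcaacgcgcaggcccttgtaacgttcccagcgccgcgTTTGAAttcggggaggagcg
Top2a: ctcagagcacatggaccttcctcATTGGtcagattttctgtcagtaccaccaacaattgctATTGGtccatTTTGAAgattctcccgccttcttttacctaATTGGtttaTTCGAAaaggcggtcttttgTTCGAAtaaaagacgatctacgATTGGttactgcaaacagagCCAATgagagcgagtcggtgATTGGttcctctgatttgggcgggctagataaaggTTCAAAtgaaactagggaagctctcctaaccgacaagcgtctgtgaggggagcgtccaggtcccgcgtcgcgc

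An E2F word was present in 7 of 10 licensing windows (70%), in 0 of 7 mitosis windows and in 2.27% of all 32851 promoter windows of the same length. Among licensing windows, Cdc6 had its E2F word at -138 from the start, Orc1 at -27, and Mcm3 had 2 just downstream of the start, at 19 and 38. CHR words were present in 6 of 7 mitosis windows (85.7%), in 20% of licensing windows and in 19.2% of all windows. Plk1 had its CHR word at 30, Aurka at 32 and Cdc20 at -18, while Top2a had 4 CHR words and 6 CCAAT boxes. A CCAAT box was present in 85.7% of mitosis windows, in 80% of licensing windows and in 37.4% of all windows. The 5 windows of the CDK inhibitors held no E2F and no CHR word. A match is a description of letters, and binding was not measured.

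**Figure D1:**
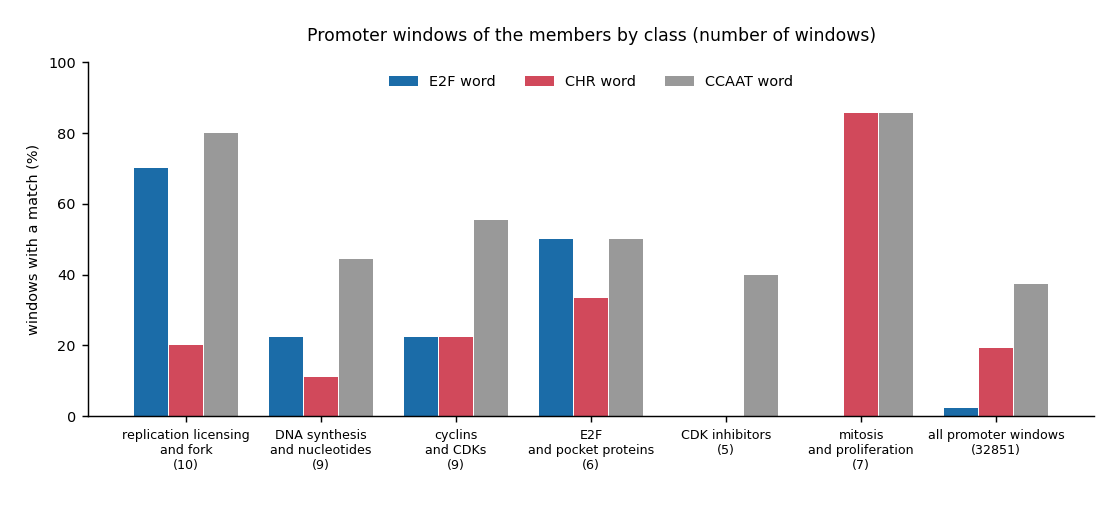
Share of promoter windows (%, bars) that hold an E2F, a CHR or a CCAAT word, for each class of members and for all 32851 windows, with the number of windows in brackets. E2F words are present in 70% of licensing windows and CHR words in 85.7% of mitosis windows, against 2.27% and 19.2% of all windows.

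By level per length (RPKM, which is CPM divided by the exon length in kilobases, mean of the 15 libraries), the members spanned from 161 RPKM for Top2a, the topoisomerase that untangles sister chromatids, to 0.501 RPKM for Cdkn2c, the INK4 inhibitor p18. Mki67, the proliferation antigen Ki-67, had 93.9 RPKM and Pcna, the sliding clamp of DNA polymerases, had 89.2 RPKM. After Cdkn2c the lowest levels per length were those of Cdk6 with 1.54 RPKM, E2f2 with 1.98 RPKM and Cdkn1b with 2.52 RPKM. Each class thus held members expressed in every group, and no member had a library at 0, the lowest count being 2 reads of Cdkn2c. Among all 5 groups, 18 of the 47 members differed past the threshold (edgeR quasi-likelihood F test, adjusted p under 0.05), where 23.2% of all genes tested did. With the replicate number as a block 41 differed, against 58.4% of all genes. The number was used as a block because libraries with the same number deviated together. Replicate 1 stood apart in every group, so this check cannot tell a pairing of numbers 2 and 3 from that distance alone.

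Gene positions are given on GRCm38. The largest differences lay between HEI and FLK1+ cells, a contrast that sets the cell cycle genes of the HEI stage against those of FLK1+ cells. In HEI cells 23 members were lower and 3 were higher, 48.9% and 6.38% of the 47, where 20.3% of all genes tested were called lower and 17% higher. The genes called lower were 6 of 12 licensing genes, 5 of 7 synthesis genes, 7 of 12 cyclins and CDKs, E2f3, and 4 of 8 mitosis genes, while Rb1, E2f2 and Cdkn2c were called higher. The median log2 difference of the 47 was -0.53, against -0.11 over all genes tested, and within replicates 1, 2 and 3 it was -0.65, -0.42 and -0.43. With the replicate block 34 members were lower and 5 higher, where 37.4% and 28.8% of all genes were, together 66.2%. Replicates 2 and 3 alone gave 32 lower and 8 higher, where 36.9% and 36.8% of all genes were, together 73.7%. In 9 members every HEI library lay below every FLK1+ library and in 2 every one lay above, where 9.57% and 8.58% of all genes were placed so. In these bulk samples, fewer cycling cells and less RNA of a gene per cell cannot be told apart. The endothelial and streak markers above moved with this contrast. So did 5 pluripotency markers, which summed to 0.0881 to 1.02 CPM in HEI libraries against 13.4 to 106.7 CPM in FLK1+ libraries, the highest being LacZ+ replicate 1. The part of these markers in the contrast was not tested.

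**Figure D2:**
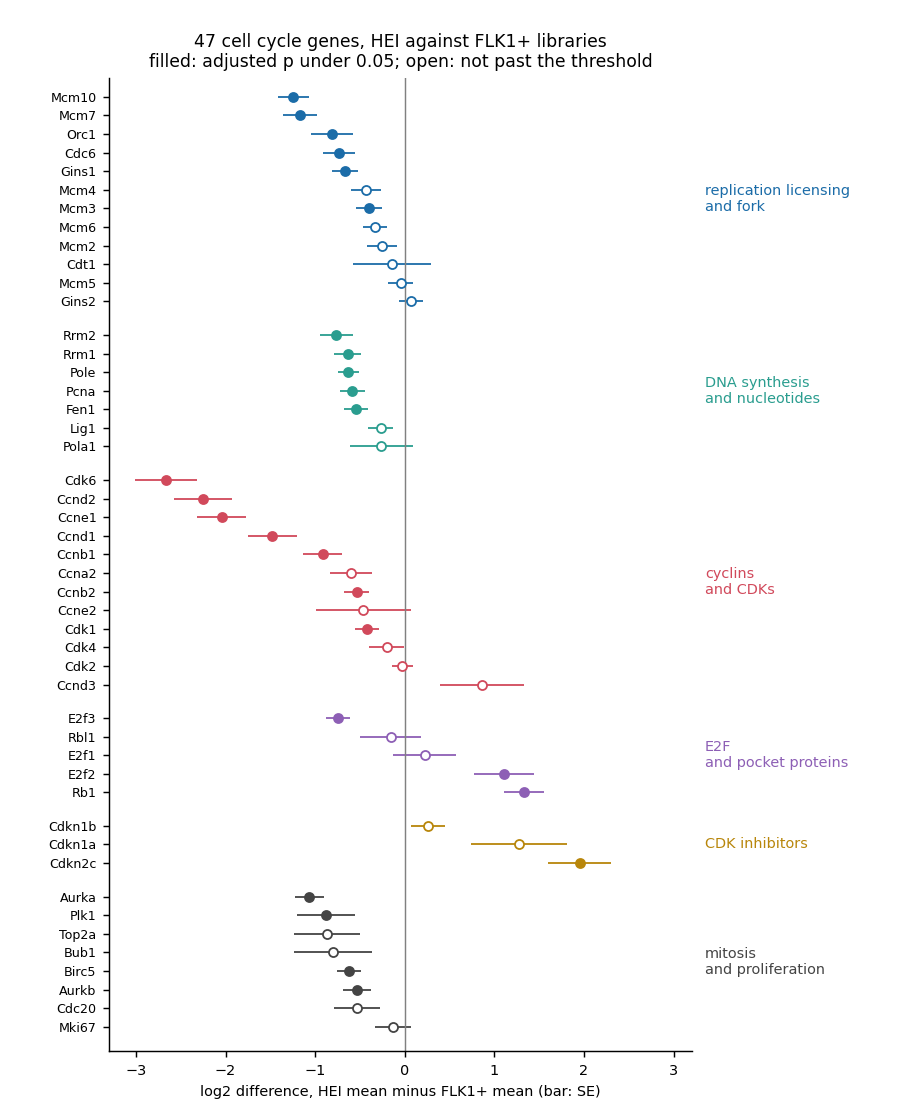
Log2 difference of each of the 47 members between the mean of the HEI groups and the mean of the FLK1+ groups (points, bars are SE), by class, filled where the adjusted p was under 0.05. The D and E cyclins and Cdk6 span the widest range, from -2.66 for Cdk6 to 0.86 for Ccnd3, and Rb1, E2f2 and Cdkn2c lie on the right.

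Among the licensing genes Mcm10 and Mcm7 were reduced most, each to less than in any FLK1+ library. Mcm7 (chr5:138164583-138172422, minus strand), a subunit of the MCM helicase, had 105, 72.8 and 67.3 CPM in HEI ENG+FDG+ cells, 160.1, 117 and 118 CPM in HEI ENG-FDG+ cells and 112, 75.7 and 76.99 CPM in HEI ENG+FDG- cells. In FLK1+ cells it had 287, 174 and 174 CPM in FLK1+ LacZ+ cells and 320.4, 188 and 186 CPM in FLK1+ LacZ- cells. All 9 HEI libraries lay below all 6 FLK1+ libraries, and within each replicate number the ENG-FDG+ library was the highest of the HEI fractions. The difference was -1.17 ± 0.19 (SE), adjusted p = 0.000377. Mcm10, which helps to activate the loaded helicase, had 31.4 to 73 CPM (median 39.9) in the HEI libraries, against 98.01 to 120.1 CPM (median 103) in the FLK1+ libraries, without overlap, a difference of -1.24 ± 0.17 (SE), adjusted p = 8.26e-05. Exons of Mcm7 share 12.6% of their length with other genes, and no source used here states whether reads were counted by strand.

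The loading factors Cdc6 and Orc1, the GINS subunit Gins1 and the helicase subunit Mcm3 also fell. Cdc6 had 49.2 to 114 CPM (median 61.1) in the HEI libraries, against 75.2 to 137 CPM (median 123) in the FLK1+ libraries, and Orc1, the large subunit of the origin recognition complex, had 26.1 to 68.7 CPM (median 47.7) in the HEI libraries, against 55.7 to 97.1 CPM (median 88.1) in the FLK1+ libraries. Gins1, a part of the helicase that travels with the fork, had 15.6 to 35.3 CPM (median 20.3) in the HEI libraries, against 27.9 to 41.6 CPM (median 35.9) in the FLK1+ libraries. In each of these 3 the ranges of HEI and FLK1+ libraries overlapped, and in Cdc6 the overlap came from 2 ENG-FDG+ libraries and the replicate 1 FLK1+ libraries. The differences were -0.74 ± 0.18 (SE), adjusted p = 0.00596 for Cdc6, -0.81 ± 0.24 (SE), adjusted p = 0.0162 for Orc1 and -0.67 ± 0.14 (SE), adjusted p = 0.00234 for Gins1. Mcm3 had 154 to 221 CPM (median 184) in the HEI libraries, against 212 to 319 CPM (median 229) in the FLK1+ libraries, a difference of -0.40 ± 0.14 (SE), adjusted p = 0.0428. That call was lost in 11 of the 15 fits that left out 1 library, at an adjusted p of up to 0.116 without FLK1+ LacZ+ replicate 1, and it held without replicate 1 of ENG+FDG+ or ENG+FDG- cells or replicate 2 or 3 of FLK1+ LacZ+ cells.

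The other 6 licensing genes did not pass. Mcm4, the licensing gene with the highest level per length, had 181 to 356 CPM (median 248) in the HEI libraries, against 282 to 367 CPM (median 356) in the FLK1+ libraries. It was at -0.43 ± 0.17 (SE), adjusted p = 0.0571, and Mcm2, Mcm5, Mcm6, Cdt1 and Gins2 lay between -0.33 and 0.07. Mcm4, Mcm6 and Mcm2 were called lower with the replicate block, with -0.45 ± 0.07 (SE), adjusted p = 8.48e-05 for Mcm4, -0.33 ± 0.10 (SE), adjusted p = 0.00979 for Mcm6 and -0.25 ± 0.10 (SE), adjusted p = 0.0348 for Mcm2. Cdt1, the licensing factor that geminin inhibits, read 120.2 to 158 CPM in all 5 replicate 1 libraries and 36.1 to 60.2 CPM in the other 10, a gap between replicate numbers larger than any between groups. Gins2 shares 67.3% of its exon length with Gse1 on the opposite strand, so its value is uncertain.

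In the synthesis class the clamp Pcna, both ribonucleotide reductase subunits, the leading-strand polymerase Pole and the flap nuclease Fen1 fell in HEI cells. Pcna (chr2:132249162-132253314, minus strand) had 145, 171 and 174 CPM in HEI ENG+FDG+ cells, 195, 252 and 220.2 CPM in HEI ENG-FDG+ cells and 119.6, 178 and 162 CPM in HEI ENG+FDG- cells. FLK1+ cells had 208, 270.1 and 302 CPM in FLK1+ LacZ+ cells and 276, 277 and 263 CPM in FLK1+ LacZ- cells. Every FLK1+ library was above every ENG+ HEI library, whereas ENG-FDG+ replicates 2 and 3 reached into the FLK1+ range. The difference was -0.58 ± 0.14 (SE), adjusted p = 0.00412. Rrm1 and Rrm2, the subunits of the enzyme that makes deoxynucleotides, were at -0.64 ± 0.15 (SE), adjusted p = 0.00465 and -0.76 ± 0.18 (SE), adjusted p = 0.00453.

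Rrm1 had 158 to 290.4 CPM (median 184) in the HEI libraries, against 258 to 338 CPM (median 329) in the FLK1+ libraries. Rrm2 had 132 to 272 CPM (median 173) in the HEI libraries, against 223 to 358 CPM (median 317) in the FLK1+ libraries. In both genes the HEI libraries inside the FLK1+ range were ENG-FDG+ replicates 2 and 3. Pole had 65.7 to 132 CPM (median 82.1) in the HEI libraries, against 118 to 149.6 CPM (median 128) in the FLK1+ libraries, a difference of -0.63 ± 0.12 (SE), adjusted p = 0.000778, and the overlapping HEI library was ENG-FDG+ replicate 1. Fen1 had 18.3 to 30.6 CPM (median 24.7) in the HEI libraries, against 32.5 to 43.05 CPM (median 36.7) in the FLK1+ libraries without overlap, a difference of -0.54 ± 0.13 (SE), adjusted p = 0.00595, but 84.2% of its exon length is shared with genes on the opposite strand, most of all Tmem258. Pola1, the catalytic subunit of DNA polymerase alpha, and Lig1, the ligase of Okazaki fragments, lay at -0.26 ± 0.35 (SE), adjusted p = 0.609 and -0.27 ± 0.14 (SE), adjusted p = 0.162. Both were called lower with the replicate block.

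The cyclins and CDKs of G1 held the widest range of any class, with Cdk6 6.34-fold, Ccnd2 4.77-fold, Ccne1 4.12-fold and Ccnd1 2.79-fold lower in HEI cells and Ccnd3 on the other side of 0. Cdk6 (chr5:3341485-3531008, plus strand), a kinase partner of the D cyclins, had 3.77, 6.95 and 8.64 CPM in HEI ENG+FDG+ cells, 11.96, 7.41 and 5.54 CPM in HEI ENG-FDG+ cells and 7.34, 6.698 and 3.897 CPM in HEI ENG+FDG- cells. In FLK1+ cells it had 16.3, 58.2 and 63.5 CPM in FLK1+ LacZ+ cells and 19.5, 53.99 and 49.6 CPM in FLK1+ LacZ- cells. Every HEI library was below every FLK1+ library, the FLK1+ libraries of replicate 1 being the lowest of their groups. The difference was -2.66 ± 0.35 (SE), adjusted p = 6.07e-05, and within replicates 1, 2 and 3 it was -1.34, -2.97 and -3.26.

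Ccnd1 (chr7:144929931-144939925, minus strand), which encodes cyclin D1, had 236, 94.8 and 114 CPM in HEI ENG+FDG+ cells, 225, 92.7 and 102 CPM in HEI ENG-FDG+ cells and 271, 122 and 128 CPM in HEI ENG+FDG- cells. FLK1+ cells had 423, 458 and 527 CPM in FLK1+ LacZ+ cells and 344, 383 and 445 CPM in FLK1+ LacZ- cells. HEI and FLK1+ libraries did not overlap, and replicate 1 was the highest library of each HEI fraction and the lowest of each FLK1+ fraction. The difference was -1.48 ± 0.27 (SE), adjusted p = 0.00086, and within replicates 1, 2 and 3 it was -0.65, -2.03 and -2.09. Part of the exon length of Ccnd1 (23.4%) is shared with a gene on the opposite strand.

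Ccnd2 (chr6:127125162-127152193, minus strand), which encodes cyclin D2, had 19.4, 18 and 23.9 CPM in HEI ENG+FDG+ cells, 103, 48.96 and 89.5 CPM in HEI ENG-FDG+ cells and 16.9, 25.4 and 36.4 CPM in HEI ENG+FDG- cells. In FLK1+ cells it had 62.9, 207 and 268 CPM in FLK1+ LacZ+ cells and 80.7, 192 and 195 CPM in FLK1+ LacZ- cells. The ENG-FDG+ libraries were the highest HEI libraries in each replicate number, and 2 of them lay above replicate 1 of both FLK1+ groups. The difference was -2.25 ± 0.32 (SE), adjusted p = 0.000115.

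Ccnd3, which encodes cyclin D3, had 223, 58.9 and 53.1 CPM in HEI ENG+FDG+ cells, 265, 77.2 and 85.1 CPM in HEI ENG-FDG+ cells and 209, 67.2 and 76.5 CPM in HEI ENG+FDG- cells. FLK1+ cells had 130.2, 43.7 and 45.6 CPM in FLK1+ LacZ+ cells and 96.5, 42.9 and 48.8 CPM in FLK1+ LacZ- cells. Replicate 1 was the highest library of every group, and within each replicate number all 3 HEI libraries were above both FLK1+ libraries. It did not pass (0.86 ± 0.47 SE, adjusted p = 0.176), and with the replicate block it was called higher (0.75 ± 0.10 SE, adjusted p = 1.47e-05). Per length, Ccnd1 was the most abundant D cyclin in each group, with 31.5, 29.7 and 36.9 RPKM in ENG+FDG+, ENG-FDG+ and ENG+FDG- cells and 99.7 and 82.9 RPKM in LacZ+ and LacZ- FLK1+ cells. Ccnd3 was second in the HEI groups with 12.7, 16.2 and 13.4 RPKM, ahead of Ccnd2 with 2.17, 8.55 and 2.79 RPKM. In FLK1+ cells the order was the other way, with 8.34 and 7.15 RPKM of Ccnd3 against 19.0 and 16.6 RPKM of Ccnd2 in LacZ+ and LacZ- cells. The order of these genes was not tested.

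Ccne1 (chr7:38097984-38107534, minus strand), which encodes the cyclin E1 that drives S-phase entry with Cdk2, had 12.5, 8.67 and 8.05 CPM in HEI ENG+FDG+ cells, 6.53, 13.8 and 16.9 CPM in HEI ENG-FDG+ cells and 12.7, 7.67 and 10.05 CPM in HEI ENG+FDG- cells. In FLK1+ cells it had 67.4, 34.1 and 30.1 CPM in FLK1+ LacZ+ cells and 66.7, 34.1 and 32.3 CPM in FLK1+ LacZ- cells. Every HEI library was below every FLK1+ library. The difference was -2.04 ± 0.27 (SE), adjusted p = 7.62e-05, while its paralog Ccne2 was at -0.46 ± 0.53 (SE), adjusted p = 0.537 and was called lower with the replicate block. Ccne2 read 8.61 to 23.8 CPM in replicate 1 libraries and 33.04 to 64.2 CPM in the others.

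Cyclins B1 and B2 and their kinase Cdk1 fell less. Ccnb1 had 87.7 to 256 CPM (median 159.6) in the HEI libraries, against 254 to 358 CPM (median 309.7) in the FLK1+ libraries, a difference of -0.92 ± 0.22 (SE), adjusted p = 0.0054. Ccnb2 had 52.01 to 83.3 CPM (median 60.97) in the HEI libraries, against 79.5 to 124 CPM (median 88.3) in the FLK1+ libraries, a difference of -0.54 ± 0.14 (SE), adjusted p = 0.00824. Cdk1 had 84.3 to 127 CPM (median 102) in the HEI libraries, against 123 to 174 CPM (median 134) in the FLK1+ libraries, a difference of -0.42 ± 0.13 (SE), adjusted p = 0.0247. In all 3 the top HEI libraries overlapped the lowest FLK1+ libraries. The call of Cdk1 was lost without FLK1+ LacZ+ replicate 1, FLK1+ LacZ- replicate 1, ENG+FDG+ replicate 3 or ENG+FDG- replicate 2 or 3, at adjusted p = 0.0523 to 0.0665. Ccna2, the cyclin A of S phase and G2 and the member of this class with the highest level per length, had 157 to 397 CPM (median 279) in the HEI libraries, against 282 to 522 CPM (median 431) in the FLK1+ libraries. It was at -0.60 ± 0.23 (SE), adjusted p = 0.0624 and was called lower with the replicate block, whereas Cdk2 was at -0.03 ± 0.12 (SE), adjusted p = 0.864. Cdk4, the other D cyclin kinase, had 179.6 to 312 CPM (median 221) in the HEI libraries, against 214 to 367 CPM (median 243) in the FLK1+ libraries. It was at -0.20 ± 0.20 (SE), adjusted p = 0.461, and it was called lower with the replicate block (-0.20 ± 0.06 SE, adjusted p = 0.0105).

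**Figure D3:**
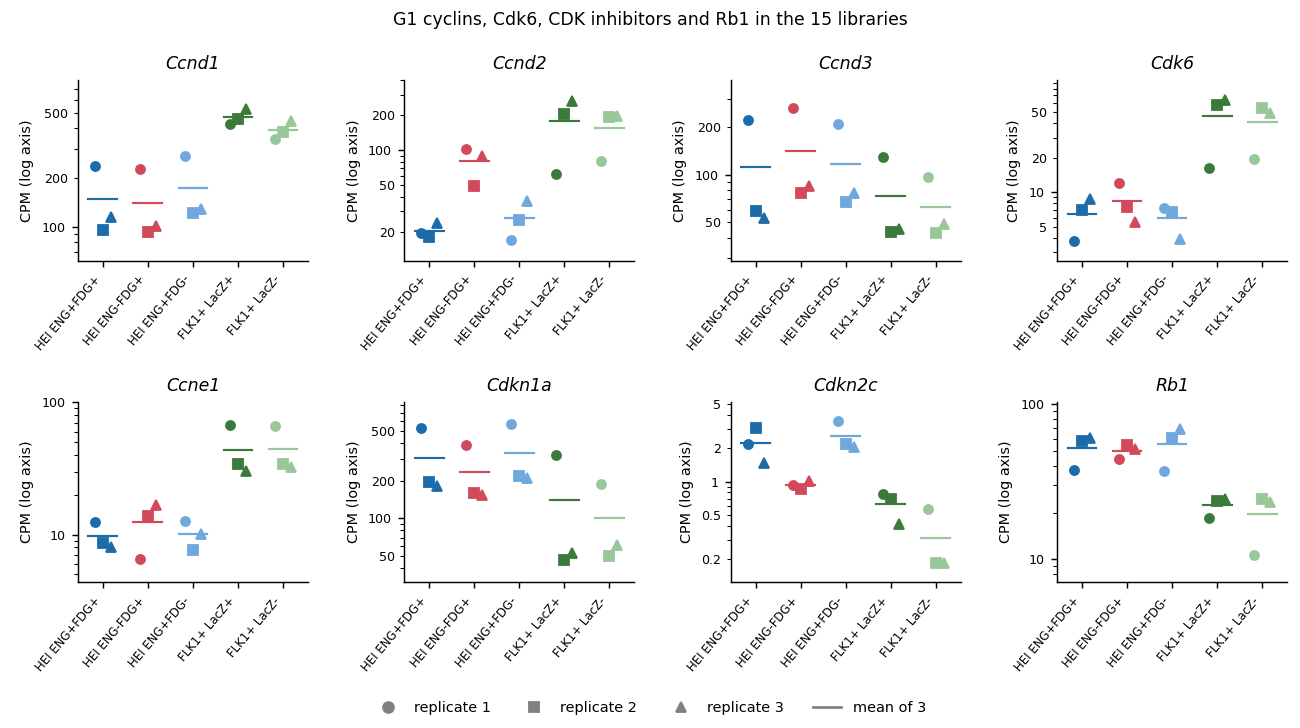
CPM (log axes) of G1 cyclins, Cdk6, the CDK inhibitors Cdkn1a and Cdkn2c, and Rb1 in each of the 15 libraries (points, shaped by replicate number) with group means (lines). Ccnd1, Cdk6 and Ccne1 are lower in all HEI than in all FLK1+ libraries, Rb1 and Cdkn2c are higher, and for Cdkn1a and Ccnd3 replicate 1 lies above replicates 2 and 3 in every group.

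The pocket protein Rb1 rose in HEI cells. Rb1 (chr14:73183673-73325822, minus strand), which encodes the retinoblastoma protein that binds and silences E2F factors, had 37.5, 57.6 and 60.7 CPM in HEI ENG+FDG+ cells, 44.04, 54.9 and 51.03 CPM in HEI ENG-FDG+ cells and 37.3, 60.5 and 69.1 CPM in HEI ENG+FDG- cells. FLK1+ cells had 18.4, 23.9 and 24.4 CPM in FLK1+ LacZ+ cells and 10.7, 24.4 and 23.4 CPM in FLK1+ LacZ- cells. All 9 HEI libraries were above all 6 FLK1+ libraries, and the difference was 1.33 ± 0.22 (SE), adjusted p = 0.000425. Its exons overlap those of Lpar6 and Rcbtb2 over 14.9% of their length. Rbl1, the pocket protein p107, was at -0.16 ± 0.34 (SE), adjusted p = 0.76.

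Of the 3 E2F genes 2 passed, in different directions. E2f3 fell, with 55.2 to 87.2 CPM (median 63.8) in the HEI libraries, against 95.6 to 128 CPM (median 117) in the FLK1+ libraries and no overlap, a difference of -0.75 ± 0.13 (SE), adjusted p = 0.00069. E2f2 had 7.05 to 19.9 CPM (median 11.3) in the HEI libraries, against 3.0 to 9.52 CPM (median 5.27) in the FLK1+ libraries, a difference of 1.1 ± 0.33 (SE), adjusted p = 0.0196, and its ranges overlapped only through replicate numbers, since all 3 HEI libraries of a number were above both FLK1+ libraries of that number. Without FLK1+ LacZ+ replicate 3 the difference of E2f2 was 0.996 and its adjusted p 0.0511. E2f1 had 13.1 to 55.8 CPM (median 20.6) in the HEI libraries, against 15.9 to 35.5 CPM (median 16.4) in the FLK1+ libraries and was at 0.22 ± 0.35 (SE), adjusted p = 0.666, with replicate 1 the highest library of every group.

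All 3 CDK inhibitors had positive differences, and 1 of them passed. Cdkn2c (chr4:109660876-109667189, minus strand), which encodes the INK4 inhibitor of Cdk4 and Cdk6 named p18, had 2.21, 3.05 and 1.49 CPM in HEI ENG+FDG+ cells, 0.933, 0.866 and 1.02 CPM in HEI ENG-FDG+ cells and 3.52, 2.203 and 2.08 CPM in HEI ENG+FDG- cells. In FLK1+ cells it had 0.766, 0.7 and 0.411 CPM in FLK1+ LacZ+ cells and 0.561, 0.185 and 0.185 CPM in FLK1+ LacZ- cells. Every HEI library was above every FLK1+ library. These levels stood on few reads, 9 to 58 in HEI libraries and 2 to 12 in FLK1+ libraries, which limits their precision. The difference was 1.95 ± 0.35 (SE), adjusted p = 0.000717.

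Cdkn1a (chr17:29090976-29100727, plus strand), which encodes the Cip/Kip inhibitor p21 and is a known p53 target, had 529, 194 and 182 CPM in HEI ENG+FDG+ cells, 387, 158 and 153 CPM in HEI ENG-FDG+ cells and 570.0, 216 and 208 CPM in HEI ENG+FDG- cells. FLK1+ cells had 322, 45.9 and 52.96 CPM in FLK1+ LacZ+ cells and 187, 50.1 and 61.5 CPM in FLK1+ LacZ- cells. Replicate 1 was the highest library of each group, so the ranges overlapped, but within each replicate number all 3 HEI libraries were above both FLK1+ libraries. The difference was 1.27 ± 0.54 (SE), adjusted p = 0.0821, with 0.99, 1.97 and 1.65 within replicates 1, 2 and 3. It was called higher with the replicate block (1.5 ± 0.16 SE, adjusted p = 1.83e-06), without FLK1+ LacZ+ replicate 1 (2.03, adjusted p = 0.00569) and without FLK1+ LacZ- replicate 1 (1.69, adjusted p = 0.0360). Cdkn1b, the inhibitor p27, had 7.72 to 17.5 CPM (median 11.6) in the HEI libraries, against 8.34 to 12.5 CPM (median 9.72) in the FLK1+ libraries and was at 0.26 ± 0.19 (SE), adjusted p = 0.324.

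In the mitosis class Aurka, Aurkb, Plk1 and Birc5 fell in HEI cells. Aurka (chr2:172356190-172370535, minus strand), the kinase of the spindle poles, had 38.1, 36.2 and 28.1 CPM in HEI ENG+FDG+ cells, 31.8, 48.8 and 53.5 CPM in HEI ENG-FDG+ cells and 41.1, 28.4 and 26.5 CPM in HEI ENG+FDG- cells. FLK1+ cells had 101, 69.6 and 78.2 CPM in FLK1+ LacZ+ cells and 73.97, 64.4 and 73.6 CPM in FLK1+ LacZ- cells. The groups did not overlap, and the difference was -1.07 ± 0.16 (SE), adjusted p = 0.0002. Birc5, which encodes survivin of the chromosomal passenger complex, had 74.6 to 126 CPM (median 112) in the HEI libraries, against 143 to 210.4 CPM (median 151) in the FLK1+ libraries without overlap, a difference of -0.62 ± 0.14 (SE), adjusted p = 0.00269.

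Aurkb, the kinase of that complex, had 67.7 to 116.3 CPM (median 93.2) in the HEI libraries. The FLK1+ libraries had 116.1 to 194 CPM (median 124), with a slight overlap. Its difference was -0.53 ± 0.16 (SE), adjusted p = 0.0183, and without FLK1+ LacZ+ replicate 1 the adjusted p was 0.0531. Plk1, the Polo kinase of mitotic entry, had 45.6 to 118 CPM (median 70.3) in the HEI libraries, against 86.9 to 269 CPM (median 103) in the FLK1+ libraries, a difference of -0.88 ± 0.32 (SE), adjusted p = 0.0469. Its call was lost in 9 of 15 fits that left out 1 library, with the largest change to -0.57 (adjusted p = 0.163) without FLK1+ LacZ+ replicate 1, and it held without replicate 2 or 3 of FLK1+ LacZ+ cells, replicate 2 of FLK1+ LacZ- cells or replicate 1 of any HEI fraction. With the replicate block it passed (-0.83 ± 0.09 SE, adjusted p = 1.11e-06).

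Top2a and Mki67, the members with the highest levels per length, did not pass. Top2a (chr11:98992943-99024189, minus strand) had 503, 1463 and 1377 CPM in HEI ENG+FDG+ cells, 573, 1525 and 1569 CPM in HEI ENG-FDG+ cells and 619, 1133 and 1092 CPM in HEI ENG+FDG- cells. In FLK1+ cells it had 980.2, 2684 and 2789 CPM in FLK1+ LacZ+ cells and 756, 2391 and 2349 CPM in FLK1+ LacZ- cells. Within each replicate number all 3 HEI libraries were below both FLK1+ libraries, but replicate 1 was the lowest library of each group. The difference was -0.87 ± 0.37 (SE), adjusted p = 0.083, and it passed with the replicate block (-0.81 ± 0.09 SE, adjusted p = 1.86e-06), without FLK1+ LacZ+ replicate 1 (-1.04, adjusted p = 0.0385) and without FLK1+ LacZ- replicate 1 (-1.05, adjusted p = 0.0342). Mki67 had 645 to 1139 CPM (median 898) in the HEI libraries, against 687 to 1197 CPM (median 1082) in the FLK1+ libraries, overlapping over nearly the whole range, with -0.13 ± 0.20 (SE), adjusted p = 0.649 and -0.12 ± 0.08 (SE), adjusted p = 0.215 with the replicate block. Bub1, a kinase of the spindle checkpoint, had 43.6 to 233 CPM (median 163) in the HEI libraries, against 106 to 346 CPM (median 314) in the FLK1+ libraries, with replicate 1 the lowest library of each group. Bub1 and Cdc20, the activator of the anaphase-promoting complex that the checkpoint restrains, were at -0.80 ± 0.44 (SE), adjusted p = 0.178 and -0.53 ± 0.26 (SE), adjusted p = 0.128, and both were called lower with the replicate block.

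**Figure D4:**
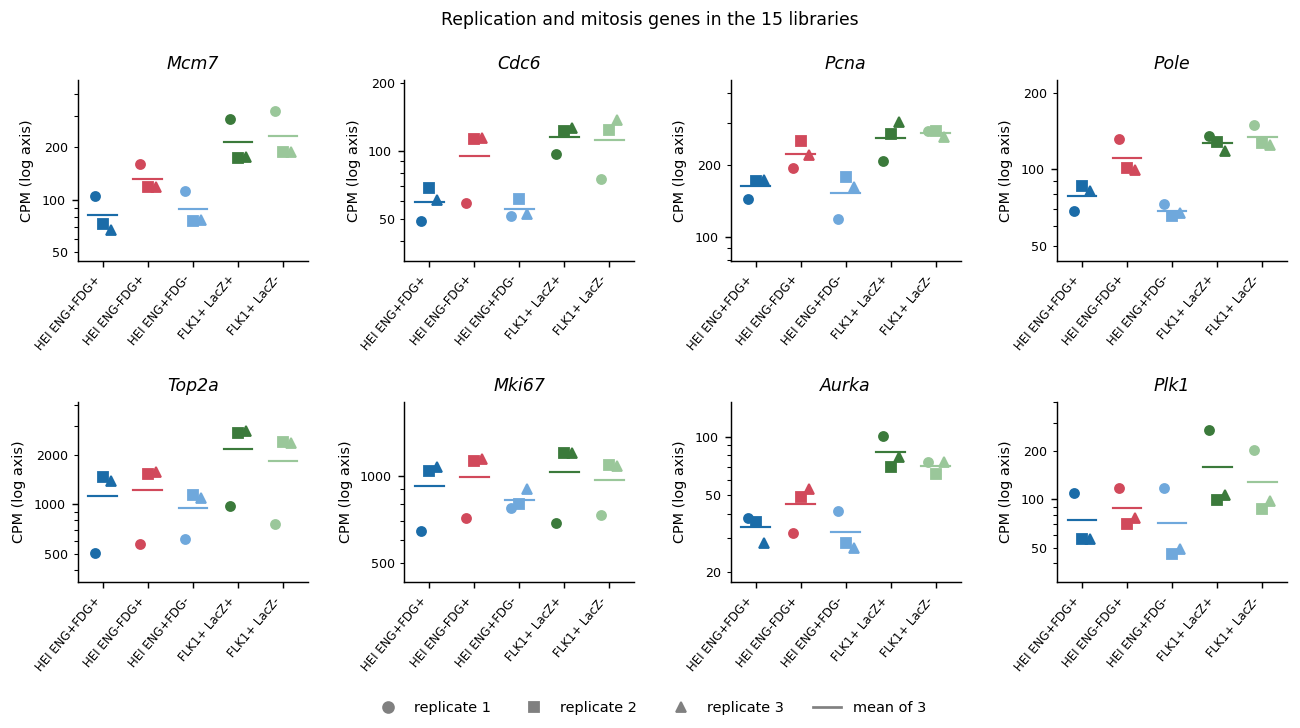
CPM (log axes) of 4 replication and 4 mitosis genes in each of the 15 libraries (points, shaped by replicate number) with group means (lines). Mcm7 and Aurka are lower in all HEI than in all FLK1+ libraries, and in Mcm7, Pcna and Pole the ENG-FDG+ libraries lie above the other HEI libraries of the same number.

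Lists of related genes outside the 47 gave the following counts in the same contrast, where 20.3% of all genes tested were called lower and 17% higher. Of 50 other replication genes 0 were called higher and 18 lower, among them Cdc45, a helicase cofactor (-0.70 ± 0.13 SE, adjusted p = 0.00113), and Gmnn, which encodes the Cdt1 inhibitor geminin (-0.84 ± 0.19 SE, adjusted p = 0.00298). Of 50 other mitosis genes 22 were lower, such as the kinetochore gene Spc24 (-1.04 ± 0.13 SE, adjusted p = 4.61e-05), and 1 was higher, the spindle gene Ckap2 (1.17 ± 0.23 SE, adjusted p = 0.00155). Of 30 other regulators 6 were lower, a share near that of all genes, including Mycl (-3.91 ± 0.45 SE, adjusted p = 2.14e-05) and Myc (-1.61 ± 0.27 SE, adjusted p = 0.000384), and 2 were higher, the pocket protein gene Rbl2 (1.45 ± 0.23 SE, adjusted p = 0.000311) and the INK4 inhibitor gene Cdkn2d (0.78 ± 0.25 SE, adjusted p = 0.0235). Of 17 p53 pathway genes 8 were higher and 0 lower, including the p53 antagonist Mdm2 (1.19 ± 0.14 SE, adjusted p = 2.19e-05), the death receptor Fas (3.58 ± 0.33 SE, adjusted p = 3.48e-06) and Eda2r (2.73 ± 0.45 SE, adjusted p = 0.000374). The medians of the replication, mitosis, regulator and p53 lists were -0.49, -0.55, -0.25 and 0.96, against -0.11 over all genes tested.

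The HEI fractions were next compared among themselves. In ENG-FDG+ cells, set against ENG+FDG- cells, 42 of the 47 members had positive log2 differences, with a median of 0.37 against 0.05 over all genes tested. No member passed in the test without a block (edgeR, 8 members at an unadjusted p under 0.05), where 0.351% of all genes did, and DESeq2 called 2, Gins1 and Pole. The 0.351% belongs to the adjusted edgeR threshold, and the unadjusted and DESeq2 counts have no share of all genes beside them. With the replicate block 12 members were called higher and 0 lower, 25.5% of the 47, where 5.44% of all genes were called higher and 5.65% lower. The 12 were Mcm7, Cdc6, Cdt1, Gins1 and Gins2 of the licensing class, Pcna, Rrm1 and Pole of the synthesis class, Ccnd2, E2f1, Rbl1, and Birc5 as the sole mitosis gene. In replicates 2 and 3 alone 38 were called higher and 4 lower, where 13.3% and 13.7% of genes were, together 27.1%. The median difference within replicate 1 was -0.00, against 0.47 and 0.56 within replicates 2 and 3, so the shift of the whole set was seen in 2 of 3 replicate numbers.

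In ENG+FDG+ cells, set against the same ENG-FDG+ cells, 42 of 47 members had negative differences, with a median of -0.27 against -0.05 over all genes. These comparisons share the ENG-FDG+ libraries and are therefore not independent. No member passed without a block (edgeR, 6 at an unadjusted p under 0.05), where 0.278% of all genes did, and DESeq2 called Ccnd2. Here too the share is that of the adjusted edgeR threshold alone. With the replicate block 9 were called lower and 0 higher, 19.1% of the 47, where 5.75% and 5.1% of all genes were, namely Mcm4, Mcm7, Cdc6, Pcna, Rrm1, Rrm2, Pole, Ccnd2 and Rbl1. In replicates 2 and 3 alone 30 were lower and 3 higher, where 14.6% and 14.7% of genes were, together 29.3%. Within replicates 1, 2 and 3 the median was -0.08, -0.35 and -0.42. Across the 3 fractions, ENG-FDG+ had the highest level of 20, 42 and 41 members in replicates 1, 2 and 3, and of 18 members in all 3, where 42.2, 44.6 and 43.1% of all genes were so placed, and 17.3% in all 3.

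**Figure D5:**
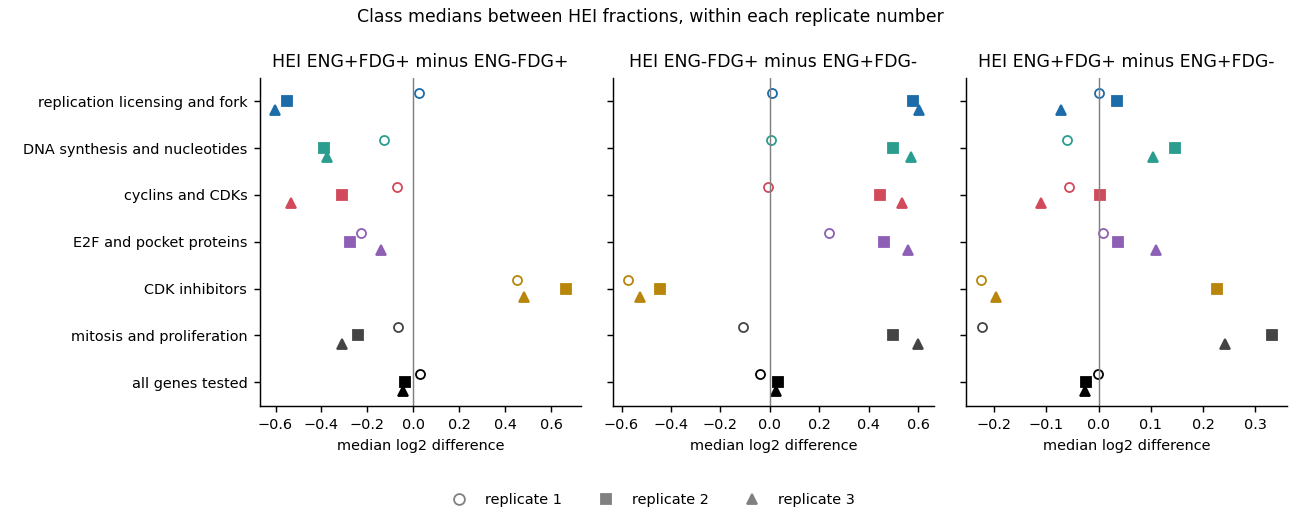
Median log2 difference of each class between HEI fractions (x axis), computed within each replicate number (open circle 1, square 2, triangle 3), with all genes tested in the bottom row. In replicates 2 and 3 the licensing, synthesis, cyclin and mitosis classes lie below 0 in ENG+FDG+ against ENG-FDG+ cells and above 0 in ENG-FDG+ against ENG+FDG- cells, replicate 1 lies nearer to 0, and the CDK inhibitors lie on the opposite side in all 3.

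Genes with the same sign in all 3 replicate numbers show the pattern with its values. For Mcm7 the levels given above put ENG-FDG+ above both ENG+ fractions without overlap. With the replicate block the difference was -0.70 ± 0.10 (SE), adjusted p = 0.00068 between ENG+FDG+ and ENG-FDG+ cells, and 0.59 ± 0.10 (SE), adjusted p = 0.00204 between ENG-FDG+ and ENG+FDG- cells. Pole, the catalytic subunit of polymerase epsilon, had 68.5, 85.7 and 82.1 CPM in HEI ENG+FDG+ cells, 132, 101 and 99.7 CPM in HEI ENG-FDG+ cells and 73.1, 65.7 and 67.5 CPM in HEI ENG+FDG- cells. All ENG-FDG+ libraries were above all ENG+ HEI libraries. Its differences with the replicate block were -0.48 ± 0.13 (SE), adjusted p = 0.0266 and 0.68 ± 0.13 (SE), adjusted p = 0.00447 in the same comparisons. In replicates 2 and 3 alone the first did not pass, while the second did (edgeR, 0.56, adjusted p = 3.84e-05).

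Pcna followed the same order, with -0.44 ± 0.12 (SE), adjusted p = 0.03 for ENG+FDG+ against ENG-FDG+ cells and 0.55 ± 0.12 (SE), adjusted p = 0.0109 for ENG-FDG+ against ENG+FDG- cells. Gins1 had 20.2, 21.05 and 20.3 CPM in HEI ENG+FDG+ cells, 22.3, 35.3 and 33.5 CPM in HEI ENG-FDG+ cells and 19.3, 18.1 and 15.6 CPM in HEI ENG+FDG- cells. The ENG-FDG+ libraries lay above all others, by little in replicate 1. It was at -0.56 ± 0.18 (SE), adjusted p = 0.064 and 0.77 ± 0.18 (SE), adjusted p = 0.0159 in those comparisons with the block, the first not past the threshold. Cdc6 had 49.2, 68.6 and 61.1 CPM in HEI ENG+FDG+ cells, 59.2, 113 and 114 CPM in HEI ENG-FDG+ cells and 51.9, 61.2 and 52.7 CPM in HEI ENG+FDG- cells, and its ENG-FDG+ library was the highest of the 3 fractions in each replicate number, by little in replicate 1. With the block it was at -0.64 ± 0.16 (SE), adjusted p = 0.0187 and 0.73 ± 0.16 (SE), adjusted p = 0.00988.

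Ccnd2 had the largest difference of any member between HEI fractions. Its ENG-FDG+ libraries, listed above, all lay above its ENG+ HEI libraries, at 16.9 to 36.4 CPM. In ENG+FDG+ against ENG-FDG+ cells it was at -1.98 ± 0.51 (SE), adjusted p = 0.145 without the block and -2.03 ± 0.41 (SE), adjusted p = 0.00911 with it. In ENG-FDG+ against ENG+FDG- cells it was at 1.62 ± 0.51 (SE), adjusted p = 0.252 and 1.75 ± 0.41 (SE), adjusted p = 0.0173. In replicates 2 and 3 alone the first difference passed (edgeR, -1.67, adjusted p = 0.022) and the second did not. Within replicates 1, 2 and 3 the first difference was -2.4, -1.44 and -1.9, the largest in replicate 1. E2f1 had 38.9, 16.3 and 19.1 CPM in HEI ENG+FDG+ cells, 55.8, 22.8 and 20.6 CPM in HEI ENG-FDG+ cells and 33.6, 15.9 and 13.1 CPM in HEI ENG+FDG- cells. Rbl1 had 10.7, 32.4 and 30 CPM in HEI ENG+FDG+ cells, 24.9, 39.6 and 41.8 CPM in HEI ENG-FDG+ cells and 13.9, 28.7 and 30.7 CPM in HEI ENG+FDG- cells. In both genes the ENG-FDG+ library was the highest HEI library of its number, and the replicate numbers stood further apart than the fractions. With the block E2f1 was at 0.64 ± 0.14 (SE), adjusted p = 0.0126 and Rbl1 at 0.60 ± 0.18 (SE), adjusted p = 0.0417 in ENG-FDG+ against ENG+FDG- cells. Ccnd1 did not share this order, with 0.09 ± 0.30 (SE), adjusted p = 0.883 and -0.33 ± 0.30 (SE), adjusted p = 0.514 in the same comparisons.

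The CDK inhibitors among the members lay on the other side of 0 from most members. Inhibitor genes on the list of other regulators did not, and none of them was called. Without the block Cdkn1c, Cdkn2a, Cdkn2b and Cdkn2d were at 0.10, 0.29, 1.33 and 0.34 in ENG-FDG+ against ENG+FDG- cells. In ENG+FDG+ against ENG-FDG+ cells they were at -0.33, -0.59, -0.80 and -0.42. Cdkn1b had 9.89, 15.8 and 17.5 CPM in HEI ENG+FDG+ cells, 7.72, 9.91 and 10.2 CPM in HEI ENG-FDG+ cells and 11.6, 13.5 and 14.8 CPM in HEI ENG+FDG- cells. Each ENG-FDG+ library was below both ENG+ libraries of its number. In replicates 2 and 3 alone it was called higher in ENG+FDG+ cells (0.79 ± 0.17 SE, adjusted p = 0.00126) and lower in ENG-FDG+ cells against ENG+FDG- cells (-0.53 ± 0.17 SE, adjusted p = 0.0238), and with the block over all libraries it passed in neither, at adjusted p = 0.117 and 0.181. Cdkn1a was at 0.33 ± 0.09 (SE), adjusted p = 0.00757 and -0.48 ± 0.09 (SE), adjusted p = 0.000382 in replicates 2 and 3, and at 0.32 ± 0.23 (SE), adjusted p = 0.388 and -0.48 ± 0.23 (SE), adjusted p = 0.197 with the block. Cdkn2c, whose 3 ENG-FDG+ libraries held 9 to 12 reads each, was at 1.21 ± 0.49 (SE), adjusted p = 0.127 and -1.41 ± 0.48 (SE), adjusted p = 0.0746 with the block, and its ENG-FDG+ libraries lay below all ENG+ HEI libraries.

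Of the 8 mitosis genes 2 had their highest level in the ENG-FDG+ library in replicate 1, and all 8 did in replicates 2 and 3. Aurka in ENG+FDG+ against ENG-FDG+ cells differed by 0.26, -0.43 and -0.92 within replicates 1, 2 and 3, and Bub1 by 0.26, -0.27 and -0.35. In ENG-FDG+ against ENG+FDG- cells all 8 mitosis genes were called higher in replicates 2 and 3, such as Aurka (0.86 ± 0.12 SE, adjusted p = 2.79e-05) and Plk1 (0.60 ± 0.10 SE, adjusted p = 9.76e-05). Of all genes tested in those replicates 13.3% were called higher and 13.7% lower. Birc5 alone of the 8 passed with the block (0.41 ± 0.11 SE, adjusted p = 0.0325). The E cyclin Ccne1 likewise differed by -0.94, 0.83 and 0.74 within replicates 1, 2 and 3. Mcm10 had 42.8, 39.9 and 43.1 CPM in HEI ENG+FDG+ cells, 31.4, 73 and 72.8 CPM in HEI ENG-FDG+ cells and 37.8, 33.6 and 38.7 CPM in HEI ENG+FDG- cells, and its ENG-FDG+ library was the lowest fraction in replicate 1 and the highest in replicates 2 and 3. It was called higher in ENG-FDG+ against ENG+FDG- cells once ENG-FDG+ replicate 1 was left out (0.96, adjusted p = 0.0368).

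Markers of other cell types moved with these contrasts. The 10 early haematopoietic markers summed to 293 to 380 CPM in ENG+FDG+ libraries, 682 to 1021 CPM in ENG-FDG+ libraries and 262 to 416 CPM in ENG+FDG- libraries. The 8 erythroid markers, with Hba-a1 at 0 in every library, summed to 12.4 to 55.7 CPM in ENG+FDG+ libraries, 39.5 to 373 CPM in ENG-FDG+ libraries and 11.9 to 71.5 CPM in ENG+FDG- libraries. The 10 endothelial markers summed to 4449 to 5602 CPM in ENG+FDG+ libraries, 2547 to 2788 CPM in ENG-FDG+ libraries and 4270 to 6237 CPM in ENG+FDG- libraries. Smooth muscle and mesenchyme markers summed to 119.7 to 567 CPM in ENG+FDG+ libraries and 263 to 466 CPM in ENG+FDG- libraries, while ENG-FDG+ libraries had 5094 CPM in replicate 1 and 349.7 and 770.0 CPM in replicates 2 and 3. Their part in the differences was not tested. With the block, 11 of 50 other replication genes, 5 of 50 other mitosis genes and 5 of 30 other regulators were lower in ENG+FDG+ against ENG-FDG+ cells and 0 of these were higher, where 5.75% and 5.1% of all genes were called lower and higher. Among them were Uhrf1, a partner of maintenance methylation, at -0.51 ± 0.10 (SE), adjusted p = 0.00644 and the E2F repressor gene E2f8 at -0.63 ± 0.13 (SE), adjusted p = 0.00911. Of the 17 p53 pathway genes 2 were higher there, the kinase gene Plk2 (0.81 ± 0.14 SE, adjusted p = 0.00322) and the antiproliferative gene Btg2 (0.67 ± 0.18 SE, adjusted p = 0.0288), and 0 lower. In ENG-FDG+ against ENG+FDG- cells 15 replication genes, 11 mitosis genes and 6 regulators were higher and 0 lower, where 5.44% and 5.65% of all genes were called higher and lower, and of the p53 pathway genes Plk2 was lower (-0.86 ± 0.14 SE, adjusted p = 0.00219).

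Reporter activity within ENG+ HEI cells went with no called member. In ENG+FDG+ against ENG+FDG- cells 0 of 47 passed (edgeR, 0 at an unadjusted p under 0.05, and 0 with DESeq2 or the replicate block), where 0% of all genes did. Differences lay between -0.36 for Ccnd2 and 0.28 for Orc1. In replicates 2 and 3 alone 3 mitosis genes were called higher, Top2a (0.38 ± 0.06 SE, adjusted p = 0.00645), Mki67 (0.34 ± 0.07 SE, adjusted p = 0.0215) and Aurkb (0.43 ± 0.09 SE, adjusted p = 0.0352), where 0.518% of genes were called higher and 0.045% lower. Within replicate 1 the same genes were at -0.30, -0.26 and -0.26. The median of the 8 mitosis genes was -0.22, 0.33 and 0.24 within replicates 1, 2 and 3, against -0.00, -0.02 and -0.03 over all genes. The levels of Mki67 make this visible, with 645, 1036 and 1074 CPM in HEI ENG+FDG+ cells, 719, 1119.5 and 1139 CPM in HEI ENG-FDG+ cells and 773, 799.8 and 898 CPM in HEI ENG+FDG- cells. In replicate 1 ENG+FDG+ was the lowest fraction, and in replicates 2 and 3 ENG+FDG- was. Of 50 other mitosis genes 6 were called higher in replicates 2 and 3, among them the kinesin gene Kif11 (0.37 ± 0.07, SE, adjusted p = 0.0215).

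Reporter activity within FLK1+ cells also went with no called member. In LacZ+ against LacZ- cells 0 of 47 passed (edgeR, 0 at an unadjusted p under 0.05, and 0 with DESeq2, with the replicate block or in replicates 2 and 3), where 0% of all genes did, and 0.0601% in replicates 2 and 3, with 0.0375% higher and 0.0225% lower. The median of the members was 0.05, against 0.04 over all genes, and differences lay between -0.25 for Ccnb2 and 0.96 for Cdkn2c (0.96 ± 0.55 SE, adjusted p = 1). Outside the 47, the CDK inhibitor gene Cdkn1c was called lower in replicates 2 and 3 (edgeR, -2.09 ± 0.32 SE, adjusted p = 0.00851). Over all libraries it did not pass, at -1.68 without the block and -1.71 with it (adjusted p = 0.334 with the block). Mitosis genes had a median of 0.19, with 7 of 8 positive, and Top2a was at 0.23 ± 0.58 (SE), adjusted p = 1, with 0.38, 0.17 and 0.25 within replicates 1, 2 and 3. Of 50 other mitosis genes 44 had positive differences and 0 passed. Genes of a list share the same libraries and the median over all genes was above 0, so these counts of signs carry no test. Of 10 endothelial markers 9 had positive differences and 0 passed, and they summed to 695 to 813 CPM in LacZ+ libraries and 454 to 832 CPM in LacZ- libraries. Kdr, the gene of the FLK1 sort, made 324 to 647 CPM and 319 to 715 CPM of these sums. Whether the reporter's effect differed between HEI and FLK1+ cells was tested for each member, and 0 of 47 differences passed (edgeR, 0 at an unadjusted p under 0.05, and 0 with DESeq2 or the block), where 0% of all genes did.

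The genes whose level across the 15 libraries ran most like that of a class were sought after subtracting the mean of each replicate number. The mean of the 8 mitosis genes was followed most closely by Espl1, Topbp1, BC055324, Ttk and Kif11 (Pearson r from 0.991 to 0.9846), of which Espl1 encodes separase and Ttk a spindle checkpoint kinase. The mean of the 12 licensing genes was followed most closely by Dkc1, Atad3a, Cep76, Ppa1 and Nup107 (r from 0.9845 to 0.979), of which Dkc1 encodes the pseudouridine synthase dyskerin. Libraries of a group share their stage and sort, so these values describe a pattern over 5 groups and carry no test.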

How the data were processed

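The authors deposited 1 table of unnormalised counts, with a line for each gene symbol and a column for each library. STAR 2.4.0, HTSeq 0.6.1 and the build mm10 are named, per the submitters' processing notes, without their order or settings. No source used here states the strand setting or the annotation. Per the labels' protocols RNA was amplified with a Nugen kit. The table had 24061 lines, of which 27 held a date in place of a symbol (0.153 to 0.349% of counts) and were left out.

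Counts were tested with edgeR 4.0.16 (limma 3.58.1, R 4.3.3). The filterByExpr filter left 13662 genes, TMM factors scaled the libraries, and all 15 libraries entered a single quasi-likelihood fit (robust option, 5 group means). Adjusted p-values are Benjamini-Hochberg values over all genes tested, with a threshold of 0.05. Log2 differences and SE come from that model. CPM are per 1000000 counts of tested genes after TMM scaling, RPKM divide CPM by the exon length of GENCODE M21 (GRCm38), and log2 differences within a replicate number used a prior count of 2. The fit was tested on simulated counts.

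Same-numbered libraries deviated together (correlations 0.432 to 0.867 over 30 pairs), although libraries with different numbers correlated at up to 0.636 and 12 of 15 libraries correlated best with their own number. The numbers were taken as pairing the samples because every same-number correlation was above 0.1, and a fit with the replicate block is given where it changes a call. Deviations were taken from the mean of the 3 libraries of a group, and replicate 1 stood apart in every group. The check therefore cannot tell a pairing of numbers 2 and 3 from the distance of replicate 1 alone. The labels do not say what the number marks. Further alternatives were RLE factors, other filters, only the groups compared, DESeq2 1.42.0, replicates 2 and 3 alone and each library left out.

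The members and lists were chosen with earlier results of these data known. Levels are given for members past the threshold and for the largest differences per class with the block or in replicates 2 and 3. They are also given for a set of fixed genes and for the highest and lowest level of each class. Some stand by library, others as a range over HEI and over FLK1+ libraries. Up to 3 genes of each other list are named.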

Additional observations from a re-analysis of the deposited data

Results flagged for a closer look

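Ccnd1, the cyclin D1 gene, had differences of one sign with the reporter in one line and of the other sign in the other line. In ENG+FDG+ against ENG+FDG- HEI cells its log2 differences were -0.20, -0.36 and -0.17 within replicates 1, 2 and 3, and in LacZ+ against LacZ- FLK1+ cells they were 0.30, 0.26 and 0.24. The opposite signs in all 6 pairs brought it to attention. The difference between the 2 effects was -0.49 ± 0.61 (SE) and did not pass (edgeR, adjusted p = 1).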

How the results depend on the processing

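RLE factors kept all counts of called members within 1.5 times and moved the median of all genes by at most 0.02. DESeq2 called 1 member in ENG+FDG+ against ENG-FDG+ cells and 2 in ENG-FDG+ against ENG+FDG- cells, where edgeR called 0. No share of all genes stands beside these DESeq2 counts. With the replicate block these counts were 9 and 12, and 41 instead of 18 differed among the 5 groups, while no other count moved by over 1.5 times. In replicates 2 and 3 alone the counts were 3 (ENG+FDG+ against ENG+FDG-), 33, 42, 40 (HEI against FLK1+) and 46 (5 groups). Of all genes 0.563, 29.3, 27.1, 73.7 and 72.6% were called there, in the same order. Without a filter on low counts 11 differed among the 5 groups. Leaving out 1 library gave 0 to 1 called members in ENG-FDG+ against ENG+FDG- cells, 23 to 27 between HEI and FLK1+ cells and 12 to 20 among the 5 groups. Within replicate 1 alone the median of the members was -0.0730, -0.0777 and -0.00364 in the FDG contrast, in ENG+FDG+ against ENG-FDG+ and in ENG-FDG+ against ENG+FDG- cells.

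Of 64 differences of named members recomputed with 1 library left out, those that changed sign, none of them called, were those of Top2a in the FDG contrast (-0.0128 without ENG+FDG+ replicate 2, range to 0.583), Plk1 in ENG+FDG+ against ENG-FDG+ cells (0.0348 without ENG-FDG+ replicate 1, range from -0.630), and, in ENG-FDG+ against ENG+FDG- cells, Ccne1 (-0.00433 without ENG-FDG+ replicate 3, range to 0.560), E2f2 (-0.0116 without ENG-FDG+ replicate 1, range to 0.933) and Cdkn1a (0.130 without ENG+FDG- replicate 1, range from -1.13). Without a filter Mcm3, Cdk1, Aurkb and Plk1 lost their calls between HEI and FLK1+ cells, and with a filter of 5 CPM in 3 libraries Mcm3 and Plk1 did. The causes were not tested. Depth limits precision most for Cdkn2c, with 2 to 58 reads per library.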

Other observations

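The distance of replicate 1 from replicates 2 and 3 differed widely among the members. Averaged over the 5 groups, Cdkn1a was 1.74 higher in replicate 1 on the log2 scale, Ccnd3 1.57, Cdt1 1.49, E2f1 1.17 and Plk1 1.10, each in 5 of 5 groups. At the other end Ccne2 was at -2.12, Bub1 at -1.73, Top2a at -1.38, Pola1 at -1.34 and Rbl1 at -1.24, lower in replicate 1 in every group. Over the 47 members this difference ran with the GC content of the longest transcript (Spearman rho 0.88) and less with exon length (rho -0.36), a description over genes that share libraries. The GC content was 36.3% for Ccne2 and 41.0% for Bub1 against 58.3% for E2f1 and 57.8% for Cdt1. These gaps between replicate numbers are larger than most differences between groups reported for the same genes.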
